A study of Mus musculus with 2 samples.

Results

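The SOCS family was compared between 1F9 cells carrying an inducible E47 protein and cells carrying a control protein. The family was taken as Socs1 to Socs7 and Cish, by the gene symbol of each array probe. All 8 genes had a named probe, 1 each, among 10208 genes with a named probe in the series, and all 8 had a positive intensity on both arrays. The 1F9 line came from a thymoma of a mouse without E2A, the gene for the basic helix-loop-helix (bHLH) factors E12 and E47, so both cultures lacked these factors of their own. One culture carried E47 joined to the oestrogen receptor (E47-ER), and the other carried only the bHLH region joined in that way (bHLH-ER), without the N-terminal domain that activates transcription. Both retroviruses also encoded human CD25, by which infected cells were isolated with magnetic beads. Both cultures had received 4-hydroxytamoxifen, which activates such fusions, for 6 hours from 1 day after infection. Each construct gave RNA for 1 single-colour (Cy3) array. Sample titles were used to assign the constructs, because the longer descriptions speak of the E47 fusion for either sample. No uninfected or untreated culture was available for comparison, and no difference below has a replicate check or a p-value.

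SOCS proteins are feedback inhibitors of cytokine receptors. A cytokine activates Janus kinases (JAKs) on its receptor, the JAKs activate STAT transcription factors, and STATs switch on SOCS genes, whose products then block the receptor or the kinase. Each member joins an SH2 domain, which binds phosphorylated tyrosine, to a SOCS box, which binds elongins B and C and recruits a cullin ubiquitin ligase. In the mouse thymus Socs1 is known to restrain signalling through receptors of the common gamma chain cytokines and interferon gamma.

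The arrays held 20289 probes, of which 19621 had a positive value on both. Intensities were used as log2 values centred on each array's median. A named gene counted as measured when its mean level over both arrays was no lower than the all-probe median, an intensity of 1.03. This held for 5563 genes, and their median log2 difference, E47-ER minus bHLH-ER, was 0.11. All 11 T lineage markers with a named probe positive on both arrays were measured, among them Cd3e, Cd3g and Cd3d. Counted in the same way, 4 of 8 B lineage, 2 of 8 myeloid and 4 of 7 fibroblast and stromal markers were measured. The summed intensities of the T lineage markers were 318 with bHLH-ER and 480 with E47-ER. Of these 11 markers 9 had a positive log2 difference, up to 2.09 for Ptcra, while Cd3e (-0.47) and Cd28 (-0.03) were negative. The B lineage markers summed to 20.9 and 20.6, and of the 4 measured ones Vpreb1 alone had a positive log2 difference (1.04). Sums were 7.89 and 7.43 for the myeloid markers, and 91.7 and 93.5 for the fibroblast and stromal markers. The last sum includes Thy1, which T cells also express. Without it the 6 other stromal markers summed to 38.7 and 25.1. The measured ones of these were Vim (27.6 and 17.3), Pdgfrb (6.56 and 2.91) and Sparc (3.55 and 4.00). The part of these shifts in the SOCS differences was not tested.

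Socs1 and Socs3 were the members past 2-fold, both brighter with E47-ER, and the other 6 lay within 2-fold. The measured members were Socs1, Socs3, Socs4 and Socs6, whereas Socs2, Socs5, Socs7 and Cish were under the level limit. Of all measured genes, 1.35% were higher and 0.27% were lower by this rule, together 1.62%. Of all named genes, with no limit on level, the shares were 4.99% and 4.22%, together 9.21%. In RNA taken from many cells together, a change in the share of cells that express a gene and a change in RNA per cell cannot be told apart.

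**Figure D1:**
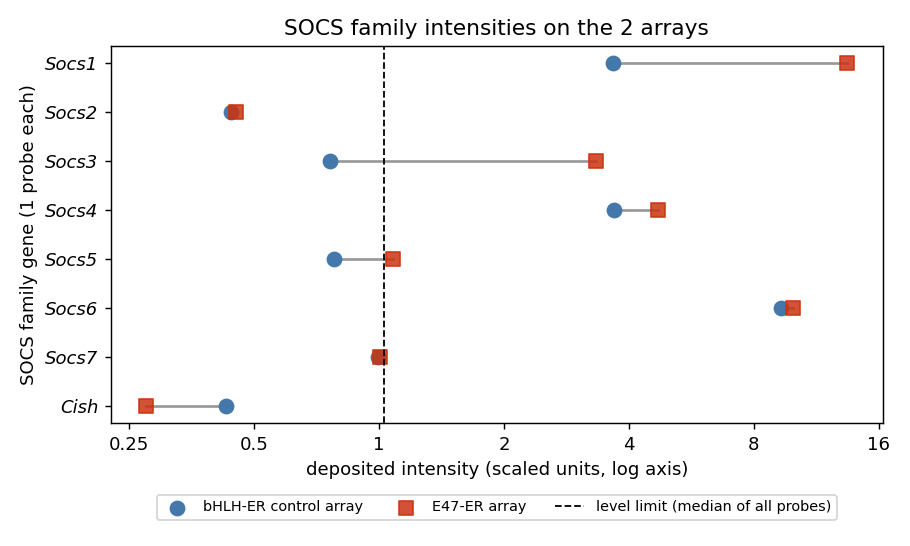
Deposited intensity (scaled units, log axis) of the 8 SOCS family genes, with 1 probe each, on the bHLH-ER control array (circles) and the E47-ER array (squares). The dashed line is the level limit of 1.03. Socs1 moved from 3.65 to 13.5 and Socs3 from 0.764 to 3.33, while the Cish square lies to the left of its circle.

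Socs1 (Entrez gene 12703) encodes an inhibitor that binds JAKs directly through a kinase inhibitory region. Its probe read 3.65 with bHLH-ER and 13.5 with E47-ER, above the level limit on both. This is a 3.72-fold difference after centring (log2 difference 1.90), the 13th highest of the 5563 measured genes. For scale, the 200 named genes nearest to Socs1 in level had differences with a 5th to 95th percentile range from -0.40 to 0.67. In that group 2 genes passed 2-fold upward and 2 downward.

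Socs3 (Entrez gene 12702) encodes the other member with a kinase inhibitory region, which acts at gp130, the shared receptor chain of the interleukin 6 family. Its probe read 0.764 with bHLH-ER, below the level limit, and 3.33 with E47-ER, above it. Socs3 therefore counted as measured through its value on the E47-ER array. The difference was 4.40-fold (log2 difference 2.14), the 7th highest of the measured genes. Among the 200 genes nearest in level the 5th to 95th percentile range was -0.54 to 0.54, and none was 2-fold higher while 2 were 2-fold lower. The log2 differences of Socs3 and Socs1 were 0.24 apart. For Socs3 the size depended on how near 0 its control value was taken to be: with 1 added to all intensities before taking logarithms, its log2 difference was 1.30 and that of Socs1 was 1.64, so their order turned.

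The promoters of Socs1 and Socs3, the members that differed most, are shown with that of Cish, the member with the only negative difference. They are RefSeq windows of build GRCm38.p6, from 250 bases before to 50 bases after each annotated start, 5′ to 3′ on the gene's strand. Of the 8 members, 4 had a window: these 3 and Socs4. Capitals mark matches, on either strand, to the E-box CANNTG, which bHLH factors bind, to the STAT motif TTCNNNGAA, or to the core of the interferon response motif, which is GAAA, any 2 bases and GAAA again. The Socs1 window lies at chr16:10785487-10785786 and the Socs3 window at chr11:117969317-117969616, both on the minus strand, and the Cish window at chr9:107296409-107296708 on the plus strand.
Socs1: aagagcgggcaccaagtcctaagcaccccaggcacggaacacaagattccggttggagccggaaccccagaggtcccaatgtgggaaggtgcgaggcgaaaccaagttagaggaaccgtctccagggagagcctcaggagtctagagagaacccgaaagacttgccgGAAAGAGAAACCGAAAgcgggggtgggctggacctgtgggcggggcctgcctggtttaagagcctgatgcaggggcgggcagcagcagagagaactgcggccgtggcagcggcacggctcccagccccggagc
Socs3: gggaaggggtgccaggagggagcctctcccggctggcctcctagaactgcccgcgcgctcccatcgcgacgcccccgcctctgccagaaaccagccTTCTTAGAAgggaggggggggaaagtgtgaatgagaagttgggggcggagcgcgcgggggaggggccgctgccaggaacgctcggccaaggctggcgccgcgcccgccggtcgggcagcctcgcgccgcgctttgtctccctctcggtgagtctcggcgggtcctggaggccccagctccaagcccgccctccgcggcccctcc
Cish: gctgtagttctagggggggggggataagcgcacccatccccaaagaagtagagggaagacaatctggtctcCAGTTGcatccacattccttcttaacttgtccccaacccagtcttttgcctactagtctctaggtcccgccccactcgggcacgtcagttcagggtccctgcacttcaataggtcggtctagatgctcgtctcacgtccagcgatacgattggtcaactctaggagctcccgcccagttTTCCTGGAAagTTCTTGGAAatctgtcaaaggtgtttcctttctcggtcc

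The windows of Socs1, Socs3 and Socs4 held no CANNTG on either strand, and the Cish window held 1, starting at base -179 from the annotated start. Of 32851 windows of the same length in the table, 72.3% held at least 1 CANNTG. The E-box forms CAGCTG and CAGGTG, both contained in CANNTG, were in 16.3% and 20.2% of windows and in none of the 4 windows of members. The Socs1 window held the interferon motif at 2 overlapping places, starting at bases -83 and -77 and written as 1 run of capitals, found in 3.44% of all windows. The Socs3 window held 1 STAT motif, starting at base -154. The Cish window held 2, starting at bases 1 and 12 after the start, and 8.30% of all windows held this motif. The Socs4 window matched none of the motifs. These matches describe letters in short windows and are not measured binding sites.

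**Figure D2:**
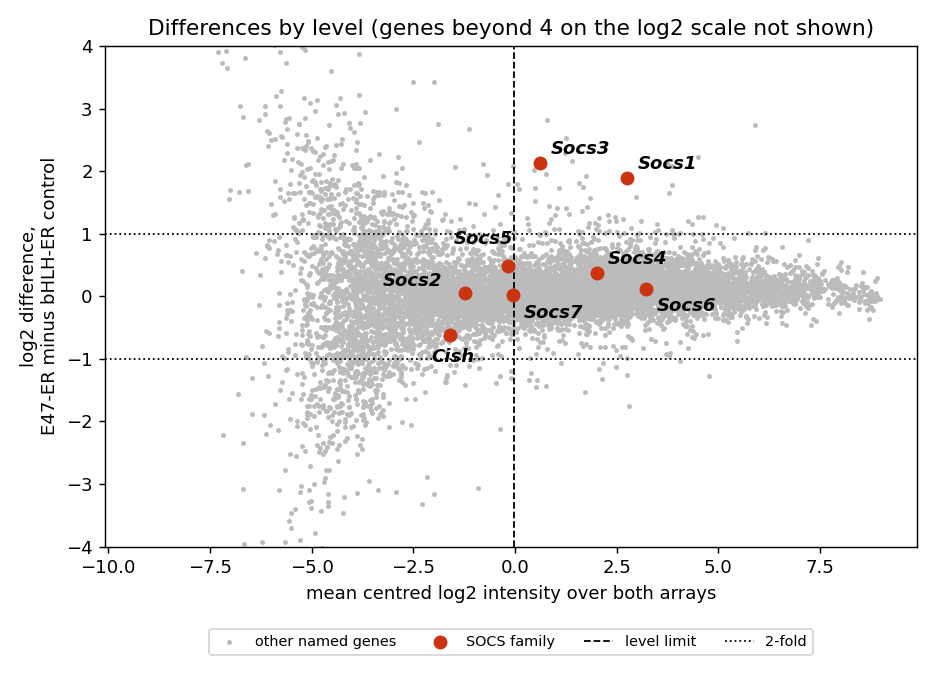
Log2 difference (E47-ER minus bHLH-ER control) against mean centred log2 intensity over both arrays, for named genes (grey) and the 8 SOCS family genes (red). The dotted lines are 2-fold, the dashed line is the level limit, and 49 genes fall outside the plotted range. Socs1 and Socs3 lie at 1.90 and 2.14, above the bulk of genes at their level, and the other 6 lie within the dotted lines.

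Cish and Socs2 are the members most closely tied to STAT5, the factor activated by interleukins 2 and 7 and by growth hormone. The Cish probe (Entrez gene 12700) read 0.427 with bHLH-ER and 0.275 with E47-ER, both under the level limit. Its log2 difference of -0.62 was the only negative one in the family. The 5th percentile of the 200 genes nearest to Cish in level was also -0.62, so the value stood at the edge of the range for probes this dim. With 0.25 added to the intensities the Cish difference was -0.36, and with 1 added it was -0.16. Socs2 (Entrez gene 216233), a regulator of growth hormone signalling in the mouse, read 0.441 and 0.453, a log2 difference of 0.05 with both readings below the limit. The probes of both genes were thus dim on both arrays.

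Socs4 and Socs5 form a pair with long N-terminal regions and are known to act on the epidermal growth factor receptor. Socs4 (Entrez gene 67296) was above the level limit on both arrays, at 3.68 and 4.71. Its 1.29-fold difference (log2 difference 0.37) lay inside the 5th to 95th percentile range of the 200 genes nearest in level, which ran from -0.27 to 0.69. The log2 difference of Socs1, whose control intensity was 3.65, exceeded that of Socs4 by 1.53. Socs5 (Entrez gene 56468) read 0.781 and 1.08, on either side of the limit, with a mean level below it. Its log2 difference of 0.48 also lay inside the range of its neighbours in level, -0.41 to 0.58.

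Socs6 and Socs7, the other pair with long N-terminal regions, are known to bind insulin receptor substrates and, for Socs6, the receptor tyrosine kinase Kit. Socs6 (Entrez gene 54607) read 9.33 and 9.96, above the limit on both arrays. Its log2 difference of 0.11 was the same, to 2 decimals, as the median of all measured genes. Socs7 (Entrez gene 192157) read 0.996 and 1.01, just under the limit, with a log2 difference of 0.03. In both genes the arrays were nearly equal.

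Over all 8 members, 7 differences were positive and the median was 0.24. Over all 9942 named genes with a positive value on both arrays, 59.1% of differences were positive and the median was 0.07. Centring the arrays on their 75th percentiles left 5 of 8 positive, because Socs2 and Socs7 moved to -0.06 and -0.08, with a median of 0.13. That scaling set the median of all measured genes to -0.0023 and changed the genes past 2-fold from 75 higher and 15 lower to 52 higher and 24 lower. Socs1 and Socs3 stayed past 2-fold under every scaling and offset tried, at log2 differences from 1.64 to 1.90 and from 1.30 to 2.14.

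**Figure D3:**
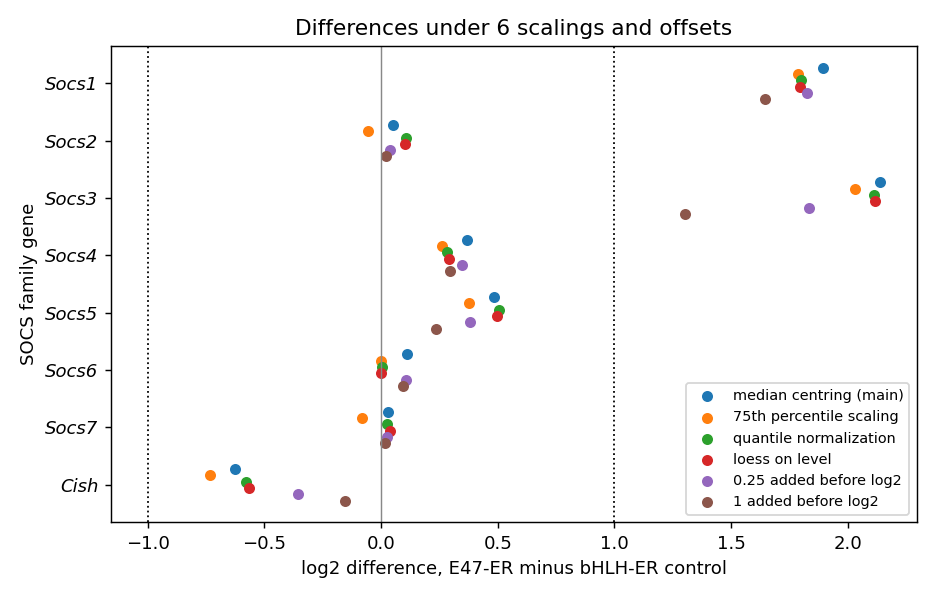
Log2 difference (E47-ER minus bHLH-ER control) of each SOCS family gene under median centring, 3 other scalings and 2 offsets added before log2. The dotted lines are 2-fold. Socs1 and Socs3 lie past 2-fold in all 6, Socs2 and Socs7 cross 0 with 75th percentile scaling, and Cish moves from -0.62 to -0.16 with 1 added.

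The rest of the cytokine pathway was described with 9 lists of genes by role, which together held 67 distinct measured genes besides the members. Of these 67, 5 passed 2-fold upward, 1 passed it downward and 61 were within 2-fold, with a median difference of 0.07. Of all measured genes, 1.35% were higher and 0.27% lower by this rule, so a short list with none past 2-fold is not set apart. Because the lists were drawn up with earlier results of these arrays known, the share of the 67 past 2-fold is no evidence about the pathway.

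Among cytokines and other ligands, 1 of 9 measured genes passed 2-fold, in the upward direction. This was Il10, an anti-inflammatory cytokine that signals through STAT3, with probe intensities of 6.79 and 29.1 (4.33-fold). The list median was -0.15. Among cytokine receptors 1 of 12 measured genes was 2-fold higher and 1 was 2-fold lower, with a list median of -0.04. The receptor for interleukin 21, Il21r, read 0.907 and 3.48, a 3.88-fold difference (log2 difference 1.95), and like Socs3 counted as measured through its value with E47-ER. With 1 added before logarithms its log2 difference was 1.24. The interleukin 2 receptor alpha chain Il2ra read 44.4 and 18.2, 2.41-fold lower. Whether the Il2ra probe also detects the human CD25 transcript of the viruses was not tested. The probe for the cytokine Il21 read 14.4 and 12.5, a log2 difference of -0.19. The interleukin 7 receptor gene Il7r, at 11.5 and 14.4, was within 2-fold.

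The kinases and transcription factors between receptor and SOCS gene lay within 2-fold. Of the JAK genes, Jak1 and Tyk2 were measured, with log2 differences of 0.16 and -0.10, while Jak2 (0.37) and Jak3 (0.26) were below the level limit. None of 5 measured STAT genes passed 2-fold, and their median was 0.27. Stat5b had the difference of largest size, 0.36 (intensities of 1.14 and 1.45). Stat3 stood at 0.29, Stat2 at 0.27, Stat6 at 0.10 and Stat5a at -0.24.

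The ligase that SOCS proteins recruit was also within 2-fold in its measured parts. The 6 measured partners were the elongin genes Eloc (0.14) and Elob (0.09), the RING protein gene Rbx1 (0.18), Cul2 (-0.02), the ubiquitin-like modifier gene Nedd8 (0.15) and the conjugating enzyme gene Ube2f (0.37), all as log2 differences. Their median was 0.15. The cullin 5 gene Cul5 and its RING partner gene Rnf7 were not analysed here. Among other proteins with a SOCS box, 5 of 20 genes with a probe positive on both arrays were measured. Of these 5, 2 passed 2-fold, both upward. Of all measured genes 1.35% were 2-fold higher, but a list of 5 drawn up with results known gives no share to compare. Wsb2, which encodes a WD repeat protein, read 1.66 and 4.10 (2.50-fold), and Asb17, which encodes an ankyrin repeat protein, read 1.25 and 2.91 (2.34-fold). Spsb4, of the SPRY domain group, had the lowest value there, with intensities of 12.2 and 6.85 and a log2 difference of -0.82. With 1 added before taking logarithms Wsb2 and Asb17 were below 2-fold, at 0.95 and 0.80.

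Inhibitors of JAK-STAT signalling outside the SOCS family did not pass 2-fold in any of 10 measured genes. Since 1.62% of all measured genes passed it, this does not set the list apart. The list median was -0.0061, and 5 of the 10 differences were positive, or 3 of 10 with 75th percentile scaling. Of all measured genes, 66.7% had a positive difference with median centring. The largest in the list was that of Bcl6, a transcriptional repressor that competes with STATs for DNA, at 0.62 (intensities of 1.67 and 2.53). The protein inhibitors of activated STATs Pias1, Pias2 and Pias3 had differences of -0.20, -0.12 and -0.11. The phosphatase genes Ptpn1, Ptpn2 and Ptpn6 stood at 0.07, 0.09 and -0.08. The 1.90 and 2.14 of Socs1 and Socs3 exceeded the values of these 10 measured genes, although Socs3 counted as measured through its E47-ER value. Among listed inhibitors under the level limit, Spry2 had a higher difference, 2.37, with intensities of 0.0143 and 0.0729.

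**Figure D4:**
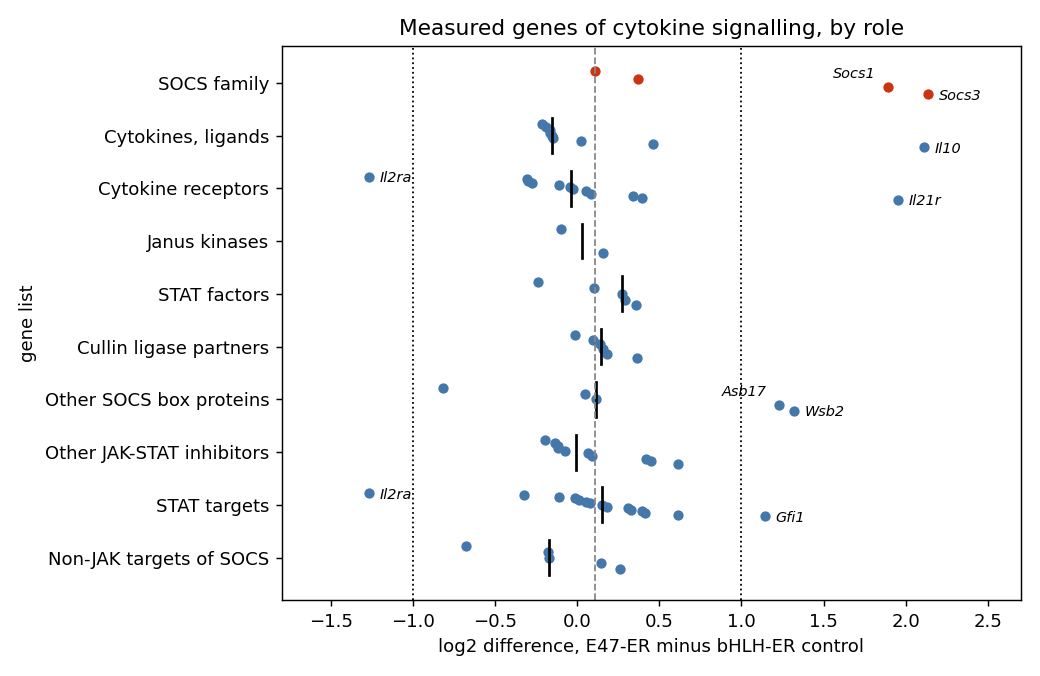
Log2 difference (E47-ER minus bHLH-ER control) of each measured gene, by role in cytokine signalling, with black bars at list medians (none for the SOCS family). Dotted lines are 2-fold and the grey dashed line is the median of all measured genes, 0.11. Genes past 2-fold are named. JAK, STAT and cullin ligase genes all lie within 2-fold.

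Genes listed as STAT targets, with SOCS members left out, had 1 of 15 measured genes past 2-fold upward and 1 downward. Gfi1, a zinc-finger repressor, read 2.88 and 6.29 (2.20-fold), and Il2ra is the lower gene given above. Gfi1 was below 2-fold with 1 added before logarithms, at 0.92. The list median was 0.15, or 0.04 with 75th percentile scaling. Of the other 13, all within 2-fold, the highest was Bcl6 (0.62), followed by Gbp2 (0.41) and Pim1 (0.40), and the lowest was Myc (-0.33). Between them lay Ccnd3 (0.33), Hif1a (0.31), Irf9 (0.18), the interferon-induced transcription factor gene Irf1 (0.15) and the survival gene Mcl1 (0.08). The rest were the proteasome subunit genes Psmb9 (0.05) and Psmb8 (-0.01), the peptide transporter gene Tap1 (0.01) and Ifit2 (-0.11). Among proteins other than JAKs that SOCS proteins are known to bind or degrade, all 5 measured genes lay within 2-fold, and the difference of largest size was that of the receptor kinase gene Flt3, at -0.68.

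The measured genes with a pair of intensities nearest to those of Socs1 were Slc5a9 (4.72 and 14.0), Nsg2 (4.24 and 9.94) and Zbtb18 (5.14 and 10.8). For Socs3 they were Hspb3 (0.715 and 2.86), Il21r and Pdgfa (0.801 and 2.64), which like Socs3 were under the level limit on the control array. Likeness was the Euclidean distance between pairs of centred log2 intensities over the 2 arrays, from 0.37 to 0.58 for Socs1 and from 0.24 to 0.34 for Socs3. Genes picked by both intensities have like differences by construction. An intensity also depends on the probe, so this likeness describes readings on these arrays only.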

How the data were processed

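RNA of 1F9 cells was measured on 1 Cy3 array per construct. The authors deposited 1 linear intensity per probe and array; values below 0 show that background had been subtracted before deposit, while the sources used here do not name the scanner, background method or scaling. A value was missing for 173 and 177 probes on the control and E47-ER arrays, and 346 and 180 were at or below 0. Probes not positive on both arrays were left out. The number of arrays limits precision.

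Each array's median log2 intensity was subtracted and probes of a gene were averaged (Python 3.11.15, numpy 2.4.6, pandas 2.3.3, statsmodels 0.14.6 for loess). Symbols came from the platform annotation, and all 10349 named probes were matched by Entrez ID to RefSeq GRCm38.p6. With 1 array per group there was no test: a gene was called at 2-fold. The procedure was run on simulated data with the same noise at every level and known changes in measured genes only. This does not check dim probes. Named genes are all members, each list's measured genes past 2-fold or else its largest difference, and the 3 genes nearest in intensity to Socs1 and Socs3. Other genes were named for their role with values seen. Members and lists were chosen with earlier results of these data known. In all, 9 alternatives of scaling, offset, level filter and probe choice were run. Probe sequences and proteins were not used here.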

Additional observations from a re-analysis of the deposited data

How the results depend on the processing

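No paired analysis was possible because each construct had 1 array, and for the same reason no replicate could be left out. The fold of Socs1 and Socs3 stayed past 2-fold in the 5 alternatives of scaling and offset; the other 4, of level filter and probe choice, cannot move the fold of a gene with 1 probe. The count of measured SOCS members past 2-fold was 2 in all settings but the one with the limit at the 75th percentile of level, where it was 1 because Socs3 was under the higher limit and Socs1 and Socs6 alone were measured. The count of all measured genes past 2-fold was 90. It was 45 with 1 added before log2, 182 with the limit on level set at the 25th percentile, 29 with it at the 75th and 916 with no filter on level, since the number of genes tested changes with the filter. The 6 pathway genes past 2-fold became 3 with 1 added, 2 with the filter at the 75th percentile and 23 with no filter. Gene by gene, the alternatives were followed for members, measured pathway genes past 2-fold and the genes nearest in intensity to Socs1 and Socs3. Among those past 2-fold none changed sign, and Wsb2, Asb17, Gfi1 and Zbtb18 fell below 2-fold with 1 added. Zbtb18 did so also under the 3 other scalings, at 0.98 to 0.99. Ptcra, Vpreb1, Pdgfrb and Spry2, also past 2-fold with median centring, were not followed in this way. For probes near 0, as for Cish, Socs2 and the control value of Socs3, fold size depends on the background subtraction made before deposit, which could not be varied here.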
